A study of Mus musculus with 6 samples.

Results

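The E protein genes Tcf3, Tcf4 and Tcf12 and the Id genes Id1, Id2, Id3 and Id4 were examined in bone marrow cells with and without active Notch1. Members were taken by symbol, with every probe set that the platform's annotation assigns to 1 of these symbols. This gave 22 of 45037 probe sets tested, for 7 of 18193 genes. Expression was measured on 1 Affymetrix array per mouse in LSK cells, which are lineage-negative and positive for cKit and Sca1 and hold stem cells and multipotent progenitors. WT mice (n = 3, 2 males and 1 female) were Mx1-cre+, and N1IC mice (n = 3, all female) were lox-stop-lox N1-IC Mx1-cre+, so that both groups carried the interferon-inducible Cre transgene. N1-IC is the intracellular, active part of Notch1, released by Cre through removal of a stop cassette. According to the labels, mice were given 3 doses of polyIC (20 mcg per g) from an age of 21 days and were 5 weeks old at the sort, 2 weeks after the last dose. The titles of WT replicates 1 and 2 carry a letter b after the number, with no meaning stated. The treatment text names littermates with a floxed Ncstn allele instead of N1-IC, and the genotype labels were followed here. The Mx1 promoter answers to interferon in many cell types, so recombination was not limited to LSK cells by the design.

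E proteins are basic helix-loop-helix transcription factors that bind DNA as dimers at E-box sites. Id proteins hold the helix-loop-helix part but lack the basic region that touches DNA, so an Id bound to an E protein keeps it off DNA. In blood, E2A (the product of Tcf3) and HEB (the product of Tcf12) drive B and T cell development, E2-2 (the product of Tcf4) sustains plasmacytoid dendritic cells, and Id2 is needed by NK and other innate lymphoid cells. Id1 and Id3 are switched on by BMP signals, and Id1 also acts in stem and progenitor cells. Id proteins are not DNA-binding factors of their own, and RNA levels do not measure the amount of E protein free to bind.

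Upstream sequences are shown for the Id gene that fell and had an entry, for the E protein gene whose probe sets rose, and for Id2, which varied among WT mice. They come from RefSeq on GRCm38.p6, run 5′ to 3′ along the gene's strand and end before the first annotated base of the gene. Capitals mark E-boxes (CANNTG, which reads the same on both strands) and the core RBPJ motif of Notch signalling (TGGGAA, searched on both strands).
Id3, chr4:136143572-136143821, plus strand: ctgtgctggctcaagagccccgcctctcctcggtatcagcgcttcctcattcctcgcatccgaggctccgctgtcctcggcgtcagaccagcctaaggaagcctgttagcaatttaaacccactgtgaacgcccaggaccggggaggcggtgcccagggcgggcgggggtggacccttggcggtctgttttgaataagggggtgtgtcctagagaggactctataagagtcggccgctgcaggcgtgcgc
Tcf12, chr9:72111894-72112069, minus strand: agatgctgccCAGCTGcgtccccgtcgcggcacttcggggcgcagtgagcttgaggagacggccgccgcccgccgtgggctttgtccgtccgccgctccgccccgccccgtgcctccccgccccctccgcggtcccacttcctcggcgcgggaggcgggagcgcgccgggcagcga
Id2, chr12:25096093-25096342, minus strand: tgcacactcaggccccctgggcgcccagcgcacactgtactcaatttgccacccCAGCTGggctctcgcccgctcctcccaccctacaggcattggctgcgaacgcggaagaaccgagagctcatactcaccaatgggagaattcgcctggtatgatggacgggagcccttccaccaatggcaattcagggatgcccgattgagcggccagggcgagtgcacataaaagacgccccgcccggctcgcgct
Each of the Id2 and Tcf12 sequences holds 1 E-box with the same letters, CAGCTG, and the Id3 sequence holds none. Over the 250 bases before each start in the table, an E-box stood in 66.2% of 32851 windows and TGGGAA in 21.6%, so a match is common. Of the 6 members searched, 5 had an entry, with 7 such windows. Id1 had no entry, and Tcf4 was not searched. The Tcf3 window and 2 of 3 Tcf12 windows had 1 E-box each, and the other Tcf12 window had none. TGGGAA was found in 1 of the 7 windows, that of Id4, which also held the only match to the N-box of Hes repressors (CACNAG, both strands, present in 36.7% of all windows). A match is only a run of letters and says nothing about binding.

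Values below are log2 intensities of single probe sets, and a change is how far the N1IC mean lies above (or, where negative, below) that of WT. A change was called where limma gave an adjusted p under 0.05 after Benjamini-Hochberg adjustment over all probe sets. Of the 22 member probe sets, 2 rose, both of Tcf12, and 2 fell, 1 each of Id1 and Id3. Over all probe sets 3.16% rose and 4.76% fell. Together 18.2% of member probe sets were called against 7.92% of all, although probe sets of 1 gene share transcripts and are not independent. With 1 probe set per gene, 2 of the 7 genes fell, Id1 and Id3, against 8.31% of all genes, and none rose, against 3.47%. At an unadjusted p under 0.05 in limma 1 member gene was higher and 3 were lower. Over all 18193 genes 1756 were higher and 3077 lower at that cutoff. No member was called at an adjusted p under 0.01 in limma, where 2.12% of probe sets and 4.09% of genes were. The median change was 0.05 over member probe sets and 0.02 over all probe sets. Groups did not overlap for 3 probe sets that lay higher in N1IC and 5 that lay lower, where 14.9% and 14.6% of all probe sets were separated in these directions. In sorted cell pools, fewer cells of a type and less RNA per cell cannot be told apart.

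**Figure D1:**
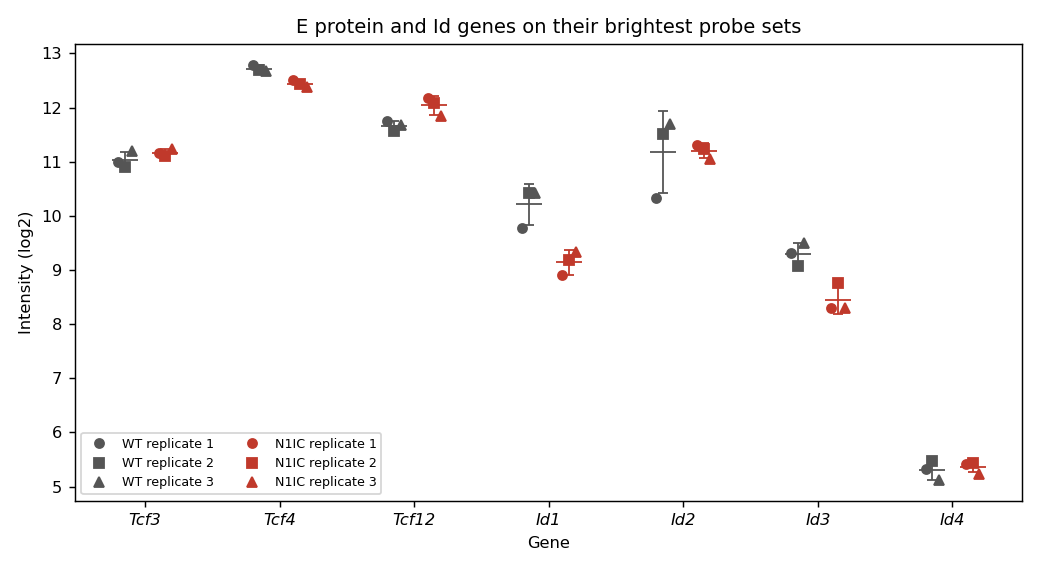
Log2 intensity (vertical axis) of the brightest probe set of each gene (horizontal axis) on every array, with WT in grey and N1IC in red, symbols for replicate numbers, and bars for the mean and SD of 3 arrays. Id1 and Id3 are lower on every N1IC array than on any WT array, while Id2 spreads widely among WT arrays.

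Arrays of a group were alike, with Pearson correlations over probe sets of 0.985 to 0.989 among WT and 0.99 to 0.992 among N1IC arrays, against 0.968 to 0.975 for pairs of 1 WT and 1 N1IC array. These run across probe sets, which are not independent. WT replicate 1 stood apart from the other arrays on the second principal component, which held 15.4% of the variance. The cKit gene Kit was bright in both groups (11.76 ± 0.18 in WT and 11.51 ± 0.06 in N1IC, SD, n = 3), and the gene of Sca1 was not analysed here. Of 7 LSK and stem cell markers 5 fell, and their summed intensity was 14.88 to 14.95 in WT and 14.05 to 14.23 in N1IC on the log2 scale. Summed T cell markers lay at 9.26 to 11.24 in WT and 13.55 to 13.9 in N1IC, with 4 of 7 higher. The others, not called and named after their values were seen, were Cd4 (change -0.62), Cd8a (-1.18) and Cd8b1 (0.98). B cell markers lay at 12.53 to 12.98 and 11.12 to 11.21, with 3 of 5 lower, and megakaryocyte markers at 12.5 to 12.93 and 9.78 to 10.35, with 4 of 5 lower. Mast cell markers lay at 10.68 to 12.27 and 12.88 to 13.21, with 2 of 5 higher. Those not called, also named after their values were seen, were Ms4a2 (change -1.02), Hdc (-1.23) and Fcer1a (0.55). Neutrophil and monocyte markers lay at 14.99 to 16.24 and 14.54 to 15.09, with 3 of 9 lower, and macrophage markers at 10.31 to 11.39 and 10.29 to 11.45, with 2 of 6 higher. The part of these cell type markers in the member changes was not tested. Sex also differed between the groups, and each called member change below is therefore set beside the only WT female, replicate 2.

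Id1 1425895_a_at, the only probe set of this E protein inhibitor, was at 9.77, 10.42 and 10.43 in WT replicates 1, 2 and 3 and at 8.9, 9.18 and 9.34 in N1IC replicates 1, 2 and 3. Every N1IC array lay below every WT array, and WT replicate 1 was the lowest of the WT arrays. The mean fell from 10.21 ± 0.38 to 9.14 ± 0.23 (SD, n = 3), a change of -1.07 (95% interval -1.6 to -0.54), or 2.1-fold lower (limma, Benjamini-Hochberg adjusted p = 0.0394). Against the WT female alone the difference was -1.28. The call was lost in each of the 5 fits that left out an array other than WT replicate 1, with adjusted p of 0.0832 to 0.122 and changes of -0.95 to -1.17, and it was kept without WT replicate 1 at -1.29 (adjusted p = 0.0159). With sex as a covariate the adjusted p was 0.153.

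Id3 1416630_at, the only probe set of an Id gene known for its induction by antigen receptor signals in lymphocytes, was at 9.31, 9.07 and 9.5 in WT and at 8.3, 8.75 and 8.3 in N1IC replicates 1, 2 and 3. The groups again did not overlap, and N1IC replicate 2 came nearest to WT. The mean fell from 9.29 ± 0.21 to 8.45 ± 0.26 (SD, n = 3), a change of -0.84 (95% interval -1.27 to -0.42), or 1.79-fold lower (limma, Benjamini-Hochberg adjusted p = 0.0414). The difference from the WT female alone was -0.62. The call was kept without N1IC replicate 2 (change -1, adjusted p = 0.0353) and lost without any other single array, with adjusted p of 0.0593 to 0.131 and changes of -0.74 to -0.95. It was also lost with sex as a covariate (0.306), after a repeated quantile normalization (0.054) and after median centring (0.0502), all as adjusted p in limma.

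Id2, the Id gene of innate lymphoid and dendritic cells, passed the test on none of its 3 probe sets by limma, adjusted or at an unadjusted p under 0.05. On the brightest, 1435176_a_at, it was at 10.32, 11.52 and 11.7 in WT and at 11.31, 11.24 and 11.04 in N1IC replicates 1, 2 and 3. WT replicate 1 lay below all N1IC arrays and the other WT arrays lay above them, so the groups overlapped. The change was 0.02 with a 95% interval of -0.88 to 0.91, which leaves room for changes in either direction as large as that of Id3. A further probe set, 1422537_a_at, had the same order, at 9.19, 10.88 and 10.94 in WT and 10.66, 10.59 and 10.37 in N1IC. Their WT SDs of 0.75 and 1 were larger than those of 96.3% and 98.3% of the 22519 probe sets at or above the median brightness. Without WT replicate 1 both changed sign, to -0.41 and -0.37, and neither was called (adjusted p = 0.144 and 0.158). The dim probe set 1453596_at was at 4.32 ± 0.49 in WT and 4.79 ± 0.21 in N1IC (SD, n = 3).

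Genes of other cells were also lowest in WT replicate 1. Summed neutrophil and monocyte markers were at 14.99, 16.24 and 16.2 in WT replicates 1, 2 and 3 and at 14.54 to 15.09 in N1IC. Summed T cell markers were at 9.26, 11.24 and 10.87 in WT, and summed plasmacytoid dendritic cell markers at 11.17, 12.18 and 11.8. NK cell markers, of cells in which Id2 is high, were at 10.06, 10.74 and 10.69 in WT and 10.13 to 10.33 in N1IC. These marker levels thus shared with Id2 a low value in WT replicate 1. They were highest in WT replicate 2, and Id2 on its 2 brighter probe sets in WT replicate 3. Summed B cell, macrophage, erythroid, megakaryocyte and mast cell markers were also lowest in WT replicate 1, and LSK markers were not. The part of these markers in the spread of Id2 was not tested.

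**Figure D2:**
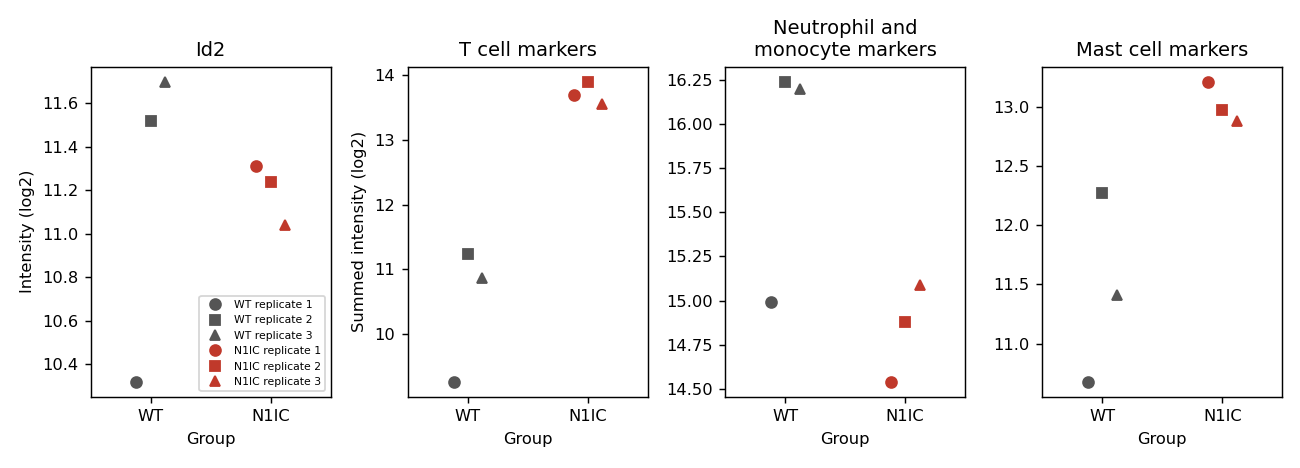
Log2 intensity of Id2 on its brightest probe set, and log2 of the summed intensity of T cell, neutrophil and monocyte, and mast cell markers, on each of 3 WT (grey) and 3 N1IC (red) arrays; each panel has its own vertical scale. WT replicate 1 (grey circle) is the lowest WT array in all 4 panels.

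Id4 was dim on all 3 probe sets, with means between 3.3 and 5.33, and 5.43% to 36.9% of all probe sets were dimmer. Its brightest probe set stood at 5.3 ± 0.18 in WT and 5.36 ± 0.1 in N1IC (SD, n = 3), a change of 0.05 with a 95% interval of -0.24 to 0.35. No detection calls were used, so this does not say that the gene was silent.

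Tcf12, which encodes HEB, rose on 2 of 5 probe sets and did not fall on any. On 1421908_a_at it was at 8.39, 8.5 and 8.39 in WT and at 9.62, 9.96 and 9.31 in N1IC replicates 1, 2 and 3. WT arrays lay within a narrow band, and each N1IC array lay well above it. The change was 1.2 (95% interval 0.79 to 1.62), or 2.3-fold (limma, Benjamini-Hochberg adjusted p = 0.0138). On 1446294_at it was at 7.48, 7.52 and 7.34 in WT and 8.48, 8.92 and 8.17 in N1IC, a change of 1.08 or 2.11-fold (adjusted p = 0.0296 by limma). Both probe sets kept N1IC replicate 2 highest and N1IC replicate 3 lowest within their group.

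The other 3 probe sets of Tcf12 moved less. The brightest, 1427670_a_at, was at 11.76, 11.56 and 11.67 in WT and at 12.17, 12.09 and 11.85 in N1IC. Here too the groups did not overlap, but the change was 0.37 (95% interval 0.09 to 0.66) and the adjusted p 0.122 by limma. The probe sets 1439619_at and 1439209_at overlapped between groups, with changes of 0.27 and 0.2. The files give no positions for these probe sets, so which transcripts of Tcf12 each one reads was not analysed here. With the mean of all 5 probe sets taken per gene, Tcf12 rose by 0.63 (adjusted p = 0.0302 by limma).

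Both called Tcf12 probe sets kept their direction against the WT female alone, at 1.13 and 1. With sex as a covariate their adjusted p was 0.139 and 0.217. The call of 1421908_a_at was lost without WT replicate 3 or N1IC replicate 1 (adjusted p = 0.0507 and 0.0563), and that of 1446294_at without any 1 WT array or N1IC replicate 1 (0.0632 to 0.0921), all by limma.

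**Figure D3:**
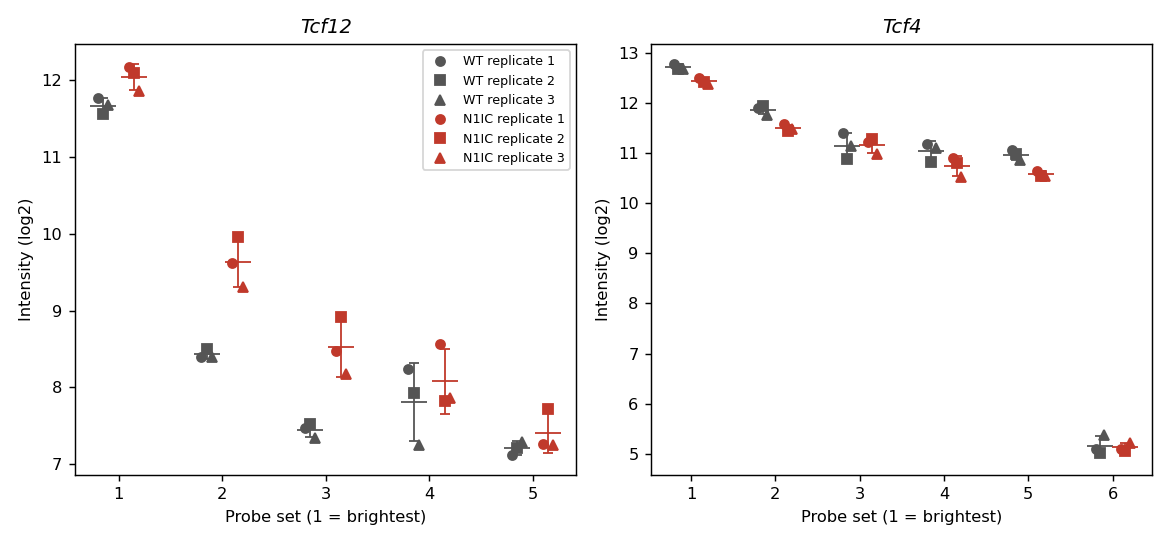
Log2 intensity of each probe set of Tcf12 (left) and Tcf4 (right), ordered from brightest, on 3 WT (grey) and 3 N1IC (red) arrays, with bars for the mean and SD. Probe sets 2 and 3 of Tcf12 show N1IC arrays about 1 log2 unit above WT (changes of 1.2 and 1.08), and 3 Tcf4 probe sets (1, 2 and 5) lie slightly lower in N1IC without overlap.

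Tcf4, which encodes E2-2, lay slightly lower in N1IC on 3 of 6 probe sets without overlap between groups, and none passed the adjusted test in limma, although these 3 had an unadjusted p under 0.05. The brightest, 1416723_at, was at 12.79, 12.69 and 12.68 in WT and 12.5, 12.43 and 12.38 in N1IC, a change of -0.28 (95% interval -0.48 to -0.08). The values of 1416724_x_at were 11.91, 11.94 and 11.76 in WT and 11.58, 11.45 and 11.48 in N1IC, and its change was -0.37. The largest of the 3 changes, at 1424089_a_at, was -0.39, from 10.97 ± 0.1 to 10.58 ± 0.06 (SD, n = 3), just short of a call (adjusted p = 0.0566 by limma). These 3 differences were thus small and even across arrays. With an intensity trend in limma all 3 were called, at adjusted p of 0.0199, 0.0259 and 0.0407. None of the 3 was called with any single array left out (adjusted p of 0.0797 to 0.257 by limma). Nor was any called with sex as a covariate, at changes of -0.25, -0.44 and -0.41. The other 3 probe sets overlapped between groups, with changes of -0.29, -0.04 and 0.01.

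Tcf3, which encodes the E2A proteins E12 and E47, was not called on any of its 3 probe sets, and none had an unadjusted p under 0.05 in limma. On its brightest probe set it was at 10.99, 10.9 and 11.19 in WT and 11.16, 11.1 and 11.24 in N1IC. The groups overlapped there and on both other probe sets. Its 3 changes were 0.14, 0.15 and 0.09, and the 95% interval of the first was -0.12 to 0.4. A change as large as that of the called Tcf12 probe sets lies outside this interval. The changes of the other 3 Tcf12 probe sets (0.37, 0.27 and 0.2) lie inside it.

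**Figure D4:**
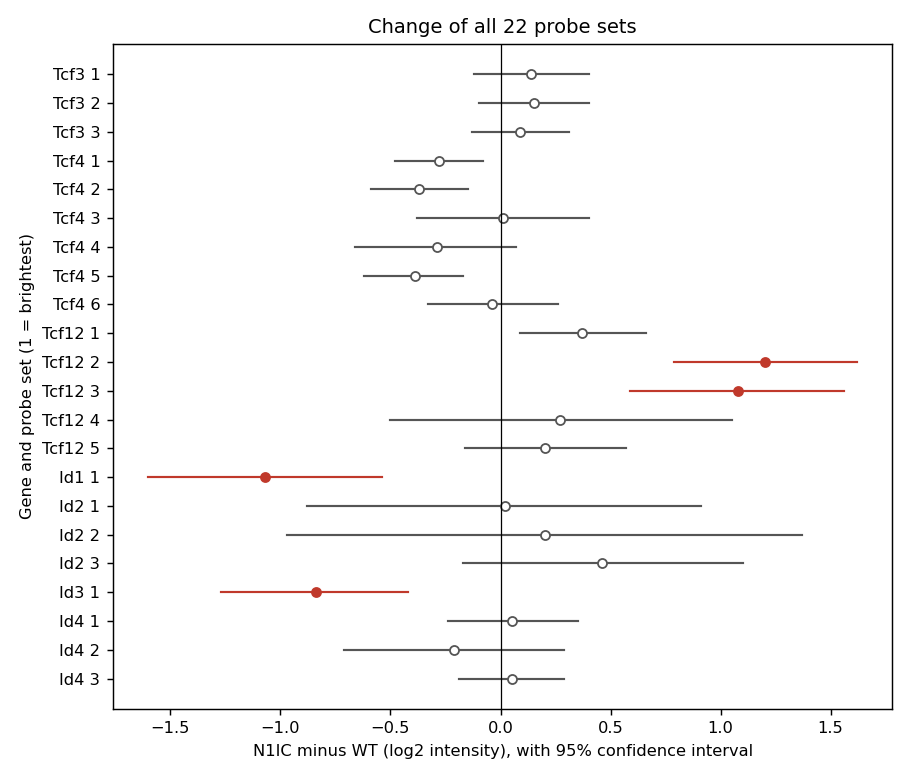
Change (N1IC minus WT, log2 intensity, horizontal axis) of all 22 probe sets, numbered within each gene from the brightest, with 95% confidence intervals from limma over 3 against 3 arrays. Filled red points passed an adjusted p of 0.05: Tcf12 2 and 3 to the right, Id1 and Id3 to the left.

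Whether members changed by different amounts was tested on within-array differences between their brightest probe sets, by a two-sided exact permutation test over 6 pairs. With 3 against 3 arrays its smallest p is 0.1, so no pair can pass 0.05. The change of Id1 minus that of Id2 was -1.09, and that of Id3 minus that of Id2 was -0.86, each with an exact p of 0.1 (0.15 adjusted over the 6 pairs). Tcf12 differed from Tcf4 by 0.66 and Tcf4 from Tcf3 by -0.42, again with an exact p of 0.1. Tcf12 against Tcf3 (0.24, exact p = 0.3) and Id1 against Id3 (-0.23, exact p = 0.6) overlapped between the groups.

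The genes nearest in pattern to the 2 called members were found by the root mean square distance of centred log2 values over the 6 arrays, among 16275 genes. For Id1 they were Adap2 (distance 0.095, change -1.01) and Cd300a, an inhibitory receptor of myeloid cells (0.104, change -1.11). Those closest to Id3 were Tmem185a (0.0758, change -0.81) and Smpd1, the gene of acid sphingomyelinase (0.0773, change -0.79). A small distance over these same 6 arrays implies a similar change, so the likeness of the changes follows from the choice. Shared regulation was not tested.

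Genes around the pathway were taken from 10 lists and counted in the fit with 1 probe set per gene, where 3.47% of all genes rose, 8.31% fell and the median change was -0.01. An unadjusted p under 0.05 in limma was met by 1756 higher and 3077 lower of the 18193 genes. In stem and progenitor cells E proteins pair with Tal1 or Lyl1 in complexes held by Lmo2 and Ldb1, together with GATA factors. Of 12 such partners 3 fell and none rose by limma (2 were higher at an unadjusted p under 0.05), with a median of -0.12. The bridging protein gene Lmo2 fell from 13.24 ± 0.13 to 12.16 ± 0.07 (SD, n = 3), a 2.1-fold drop (adjusted p = 0.00234 by limma). Gata2 fell 1.61-fold, and its call held without any single array but not with sex as a covariate (change -0.63, adjusted p = 0.134 by limma). Tal1 fell 1.8-fold, and its call was lost with sex as a covariate (adjusted p = 0.269) and without any 1 array other than N1IC replicate 1 (adjusted p of 0.06 to 0.103 by limma). Lyl1 and Ldb1, bright but not called, had changes of -0.02 and -0.1.

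Coactivators and corepressors of E proteins showed small differences on their brightest probe sets. On these none of 10 was called by limma and none had an unadjusted p under 0.05, with changes between -0.24 and 0.21. Of the 4 probe sets of Cbfa2t3, named after its values were seen, 3 had a negative change. The fit over all probe sets called 2 of the 4. The histone acetyltransferase gene Crebbp was at 12.43 ± 0.07 in WT and 12.49 ± 0.1 in N1IC (SD, n = 3), and the deacetylase gene Hdac2 at 12.2 ± 0.08 and 12.22 ± 0.03. None of 10 genes of E protein or Id turnover was called on its brightest probe set either, with 2 higher at an unadjusted p under 0.05 by limma. Bright examples were Skp1, a subunit of ubiquitin ligases, with a change of 0.25, and Cops5, a signalosome subunit, with 0.17. With the mean of all probe sets Cops5 rose by 0.34 (adjusted p = 0.0335 by limma). In the fit over all probe sets, 1 of 2 probe sets of Cops5 rose. So did 2 of 6 of Skp2, named after its values were seen. Asb2, a ubiquitin ligase adaptor known to target E2A downstream of Notch and named after its value was seen, had a change of -0.35 (95% interval -1.15 to 0.45).

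Of 16 receptors, Smads and Egr factors that act upstream of Id genes, 1 rose and 2 fell, with a median of -0.25. Smad6, an inhibitory Smad and itself a target of BMP signals, fell from 7.34 ± 0.19 to 6.33 ± 0.26 (SD, n = 3), or 2.02-fold (adjusted p = 0.0144 by limma). Bmpr2, the type II BMP receptor, fell 1.55-fold, and Tgfbr1, the type I TGF-beta receptor, rose 1.59-fold. With sex as a covariate none of these 3 was called (adjusted p of 0.122 to 0.295 by limma). Calls of Bmpr2 and Tgfbr1 held without WT replicate 1 and were lost without any other single array, at adjusted p of 0.0667 to 0.118 and 0.0507 to 0.0669, and that of Smad6 was lost without WT replicate 3 or N1IC replicate 1 (0.0565 and 0.0552). Egr1 and Smad7, bright but not called, had changes of -0.44 and 0.53.

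Lists of known E protein target genes were counted for the B and T lineages, with Rag1, Rag2 and Il7r in both. None of these 3 was called on its brightest probe set. Of 15 B-lineage and recombination genes 9 fell and none rose by limma (2 were higher at an unadjusted p under 0.05), with a median of -1.43. Folds here are ratios of measured intensity, and since no detection calls were used, a ratio with a dim group (Ebf1 and Blnk in N1IC, Ptcra in WT) may understate the change. Ebf1, a B cell factor that E2A activates, fell 45.6-fold from 11.13 ± 0.43 to 5.62 ± 0.61 (SD, n = 3), the adaptor Blnk 37.7-fold to 4.7 ± 0.48, and the surrogate light chain genes Igll1 and Vpreb1 29.8-fold and 6.8-fold. With the mean of all probe sets per gene, the changes were smaller for Ebf1 (-3.73) and Igll1 (-3.82), and both were still called. The receptor chain Cd79a fell 14.7-fold, while Dntt, which adds bases at recombination joints, was not called at -0.82. Of 15 T-lineage genes 7 rose and 1 fell, with a median of 1.01; 4 rose with sex as a covariate. The gene that fell, Socs3 (an inhibitor of cytokine signals, named after its value was seen), was 1.8-fold lower, and none of the list fell without any 1 array other than WT replicate 1. Ptcra, the pre-T receptor chain and a target of E proteins and Notch, rose from 4.84 ± 1.04 to 11.61 ± 0.28 (SD, n = 3), a measured ratio of 109-fold over a dim WT level. Cd3g rose 50.3-fold, Notch3 19-fold, Bcl11b, a T cell commitment factor, 7.23-fold, and Notch1 1.66-fold. Of these 5, Notch1 alone was not called with sex as a covariate (change 0.57, adjusted p = 0.123 by limma). Il7r, the interleukin 7 receptor chain shared by both lists, was not called at a change of 1.34 (adjusted p = 0.0656 by limma), and Cxcr4 had a change of 0.08. Several of these are Notch targets as well, and the part of E proteins in their change was not tested. Notch1 is counted among the 7 T-lineage genes that rose. N1IC mice also carry the N1-IC form of Notch1, and whether its transcript adds to the Notch1 signal was not tested.

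Among 11 innate lymphoid genes 1 rose and 1 fell, with a median of -0.6. Gata3, needed by T cells and by innate lymphoid cells that hold Id2, rose from 8.63 ± 0.06 to 11.31 ± 0.02 (SD, n = 3), or 6.39-fold, and Rora fell 5.92-fold on its brightest probe set. Of the 9 Rora probe sets 8 changed in that direction and 4 were called, and the mean of all gave a change of -1.03. Tox, a nuclear factor of both lineages, was not called on its brightest probe set at 0.98 (adjusted p = 0.052 by limma). In the fit over all probe sets 1 of its 3 was called. Their mean rose by 0.91 (adjusted p = 0.0305 by limma). Of 11 plasmacytoid dendritic cell genes, the lineage that needs Tcf4, 2 fell and none rose by limma (4 were lower and none higher at an unadjusted p under 0.05), with a median of 0. Irf8, a factor of dendritic and myeloid cells, fell 7.58-fold and Tlr7 3.41-fold. With sex as a covariate neither was called, at changes of -3.49 (adjusted p = 0.0533 by limma) and -1.71 (0.0563), against -2.92 and -1.77 without it. The bright genes Bcl11a and Ly6d had changes of 0.05 and 0.43. Of 8 conventional dendritic cell genes, a list that includes Id2 itself, 2 fell and none rose by limma (4 were lower and none higher at an unadjusted p under 0.05), with a median of -1.31. Flt3, a cytokine receptor of progenitors and dendritic cells, fell 8.47-fold. Xcr1, a chemokine receptor, fell from 5.45, 7.89 and 7.83 in WT replicates 1, 2 and 3 to 4.15 ± 0.24 in N1IC (SD, n = 3), a dim level, so that the measured 7.5-fold ratio may understate the change. In the fit over all probe sets the only probe set of Xcr1 was not called. Cd74 and Itgax had changes of -1.41 and 0.64 and were not called. With 1 array left out, 1 to 6 of the dendritic list and 1 to 5 of the innate lymphoid list fell. Both counts were highest without WT replicate 1, where 1420 of all 18193 genes fell. The Xcr1 call held in that fit and was lost without any other single array (adjusted p of 0.102 to 0.131 by limma). It was also lost with sex as a covariate (adjusted p = 0.118 by limma).

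Cell cycle inhibitors completed the lists. Of 7 measured 1 fell and none rose by limma (1 was higher at an unadjusted p under 0.05), with a median of 0.22. Cdkn1c, the gene of p57 and a regulator of stem cell quiescence, fell from 6.48 ± 0.28 to 5.49 ± 0.17 (SD, n = 3), or 1.98-fold, and the call was lost when WT replicate 2 was left out and likewise for N1IC replicates 1 and 3 (adjusted p of 0.055 to 0.0613 by limma) and with sex as a covariate (0.123). Cdkn1a, the gene of p21 and an E2A target, and Cdkn1b had changes of 0.36 and 0.22 and were not called.

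**Figure D5:**
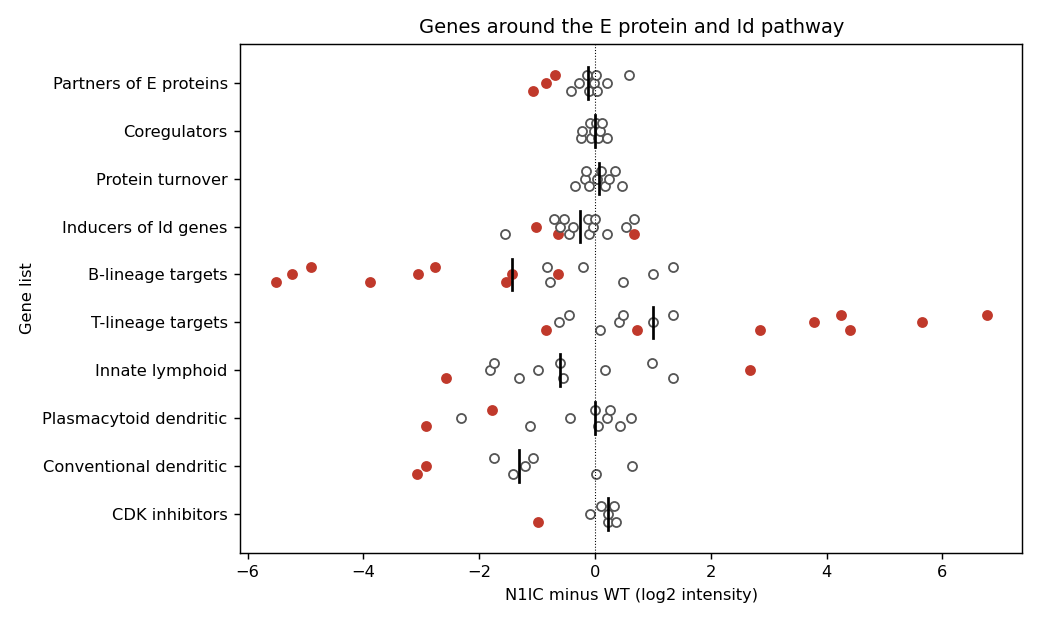
Change (N1IC minus WT, log2 intensity, horizontal axis) of each measured gene in 10 lists (rows), with filled red points for an adjusted p under 0.05 in limma and a black bar at each list's median. B-lineage targets have a median of -1.43 and T-lineage targets of 1.01, while coregulators lie within 0.24 of 0. Each gene is shown on its brightest probe set.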

How the data were processed

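The authors deposited 1 table of probe set intensity values for 6 arrays, made with RMA per the submitters' processing notes; its version was not stated in the sources used here. Their range shows a linear scale, and log2 was taken first. RNA (5 ng) was amplified with a Nugen Ovation kit, per the labels' protocols, which can widen the spread of dim genes. Detection calls and scan dates were not used. The arrays' number limits the precision.

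After 64 controls were left out, limma 3.58.1 in R 4.3.3 (lmFit, eBayes, two-sided, no covariate) was fitted to all 45037 probe sets, and again to 18193 genes on their brightest probe set, with Benjamini-Hochberg adjustment over all features and a threshold of 0.05. Of the probe sets, 34945 had 1 symbol, 932 several and 9160 none; 34741 of the single symbols matched by gene ID through RefSeq (GRCm38.p6). The fit was tested on simulated data.

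The members, lists and tests were chosen with earlier results of these data known. Text names all members, up to 5 called genes per list by smallest p, 2 bright uncalled ones, and the 2 genes nearest to each called member. Some listed genes were not analysed here, and counts are over those measured. Figures used matplotlib 3.10.9. Alternatives were a replicate block, sex as a covariate, repeated quantile normalization, median centring, the brighter 60% of features, other variance priors, array weights, a threshold of 0.01, the mean of all probe sets, and leaving out each array. Labels describe each sample as cells of a mouse and do not tie samples to litters.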

Additional observations from a re-analysis of the deposited data

How the results depend on the processing

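All 4 member calls stood near the threshold: their direction held in each of the 15 alternatives run on probe sets, and none was called in all of them. In the main analysis 2 member probe sets were higher and 2 lower, and 2 member genes were lower and 0 higher. The counts of probe sets higher and lower were 0 and 0 with sex as a covariate and at a threshold of 0.01. Both these settings had 3 probe sets higher and 5 lower at an unadjusted p under 0.05 in limma. With sex as a covariate N1IC is set against WT replicate 2 alone, the only WT female. The count lower was 1 after repeated quantile normalization, 1 after median centring and 5 with an intensity trend. With the brighter 60% of features the count lower also took in Tcf4 1424089_a_at. Leaving out 1 array gave 0 to 2 higher and 0 to 1 lower. Member genes lower numbered 0 with sex as a covariate, 0 at the threshold of 0.01 and 0 to 1 with 1 array left out, and the mean of all probe sets gave 1 gene higher, Tcf12. Over all genes, where 632 rose and 1512 fell, the counts were 357 and 936 with the replicate block, 116 and 333 with sex as a covariate, 209 and 536 at 0.01, and 332 to 509 and 835 to 1420 with 1 array left out. Over all probe sets, 1422 and 2146 became 607 and 1003, 161 and 344, 331 and 626, and 615 to 1258 and 1051 to 1964 in these settings.

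Replicate numbers are shared by both groups, but same-numbered arrays did not deviate together (correlations of deviations of -0.09, -0.09 and 0.1), and 1 of 3 WT arrays correlated best with its own number, so the numbers are not taken as pairs. With the replicate block 1 member probe set was higher, 1 was lower and 1 member gene was lower.

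Sign changes touched uncalled values alone. With sex as a covariate the changes were 0.12 for Tcf4 1416725_at, -0.34, -0.32 and -0.1 for Id2 1422537_a_at, 1435176_a_at and 1453596_at, -0.11 for Id4 1423260_at, 0.07 for Lyl1 and -0.44 for Ly6d. Array weights gave -0.05 for Id2 1435176_a_at, the mean of all probe sets -0.06 for Crebbp, and repeated quantile normalization 0 for Hdac2, rounded. With 1 array left out the ranges were -0.11 to 0.07 for Tcf4 1416725_at, -0.12 to 0.14 for Tcf4 1434149_at, -0.37 to 0.5 for Id2 1422537_a_at, -0.41 to 0.28 for Id2 1435176_a_at, and -0.01 to 0.11, -0.04 to 0.14 and -0.32 to 0.01 for Id4 1423259_at, 1423260_at and 1450928_at. They were 0 to 0.49 for Tcf12 1439619_at, -0.08 to 0.06 for Lyl1, -0.03 to 0.04 for Hdac2, -0.02 to 0.13 for Bcl11a and -0.4 to 0.86 for Ly6d. The cause of these changes was not tested. All 3 probe sets of Id4 were dim, and 3 arrays per group limit every interval.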
